A study of Danio rerio with 36 samples.

Results

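The methylation that *dnmt1* mutant males had lost in sperm was set against the level in sperm of genotypically wild-type G4 males of the mutant lineage, window by window across the genome. The labels do not say whether the sequenced mutant males were forebears of the sequenced G4 males. The comparison held 6 of the 18 fish of the series: 3 G4* males and 3 G2 *dnmt1*-/- males. CpGs valued in all 6 males were joined by position and averaged in 1-kb windows that held at least 5 of them, which gave 651158 windows on 25 chromosomes and 7731331 CpGs of the 23946533 listed.

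G4* males are genotypically wild type and were named transmitting G4 by the labels, since their offspring showed impaired larval T cell development. G2 mutant males were homozygous for *dnmt1* t25501, a viable missense allele taken to be hypomorphic, and the labels call their sperm Generation 1. G4+ males, the non-transmitting G4, are genotypically wild type as well, and G2 wild-type males carry no mutant allele. All of them had the strain label mixed background, no treatment and no stated age. As the study describes the pedigree, G2 mutant males were crossed with wild-type females, the heterozygous G3 fish were crossed with wild type again, and G4 fish without the mutant allele were kept. A G4 male therefore holds only a part of its genome from its mutant forebear. Its *dnmt1* alleles come from wild-type fish. Away from *dnmt1*, the deposited values do not show which part came from the mutant forebear. Each fish gave 2 libraries from different kits that the authors merged, so the male was the replicate, and p-values measure the spread between 3 males a group. Generation and deposited table cannot be told apart in G4* against G2 mutant sperm. The G4+ against G2 wild-type comparison crosses the same generations and tables and served as background. G4+ males descend from G2 mutant males as G4* males do, so that pair differs from the main one in its G2 side more than in its G4 side. DNA methylation values hold no expression markers, so the sperm label could not be checked against marker genes.

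DNMT1 copies methylation onto the new DNA strand at each round of replication, after UHRF1 has bound the hemimethylated CpG. DNMT3 enzymes place methylation on unmethylated CpGs, and TET enzymes oxidise it. Zebrafish sperm DNA is highly methylated outside CpG-rich regulatory stretches, and the embryo largely keeps the paternal pattern through early development, in contrast to mammals.

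Sperm of all 3 G4* males stood close to a wild-type level. Mean methylation over the 7731331 CpGs was 91.4%, 91.4% and 91.4% in G4* males 1 to 3, against 59.9%, 70.9% and 69.0% in G2 mutant males 1 to 3. The groups did not overlap, and the difference of 24.8 points reached the smallest p that 3 against 3 males allow (two-sided exact permutation test, p = 0.1). G4* males differed little from each other (91.4% ± 0.0259 SD, n = 3), while the mutant males were widely spread (66.6% ± 5.91 SD, n = 3), with male 1 lowest. Over the 5847144 CpGs valued in all 12 sperm males, G4* averaged 91.8% ± 0.0307 and G2 wild type 92.3% ± 0.04 (SD, n = 3 each). G4* stood 0.47 points below G2 wild type and G4+, at 91.9% ± 0.0868 (SD, n = 3), stood 0.43 points below it, both without overlap (exact permutation test, p = 0.1 for each).

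The shape of the distribution changed as well as its mean. Over 488394 windows valued in all 12 sperm males, 93.4% stood at 80% or more in each G4* male, against 7.97%, 31.7% and 25.8% in G2 mutant males 1 to 3. Windows between 40% and 80% made up 2.35% in each G4* male, against 82.2%, 63.2% and 68.6% in the mutant males and 1.86% to 1.87% in the G2 wild-type males. Unmethylated windows, under 10%, were about as frequent in G4* (3.19% to 3.21%) as in G2 mutant sperm (3.61% to 4.02%). The mutant genomes were therefore spread over intermediate levels, and the G4* genomes were split into a high and a low class like those of wild type.

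**Figure D1:**
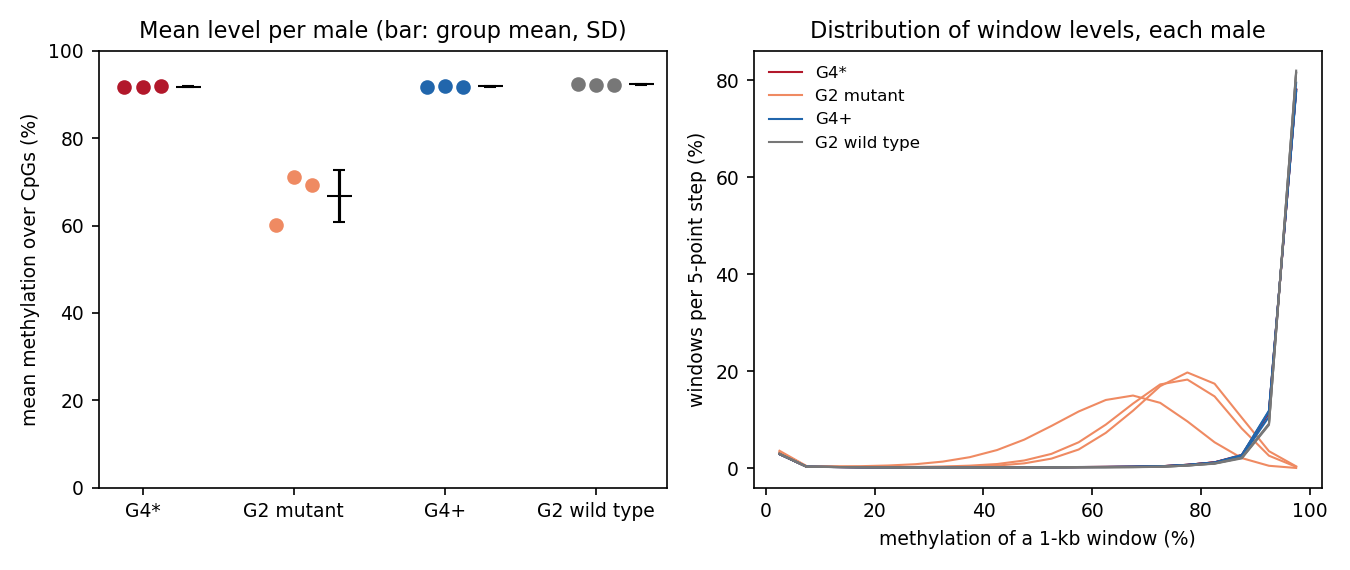
The left panel plots mean methylation (%) over the CpGs valued in all 12 sperm males for every male, with the group mean and SD beside the points; the right panel plots the share of 1-kb windows (%) in each 5-point step of methylation, 1 line a male. The group means of G4*, G4+ and G2 wild type lie between 91.8% and 92.3%, and only the G2 mutant lines peak at intermediate levels.

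In single windows, 454357 of 651158 were called higher in G4* than in G2 mutant sperm, which is 69.8% of windows (limma on logit levels, with 20 points or more between the groups at an FDR below 5% after Benjamini-Hochberg adjustment). A further 165709 windows passed the FDR with a rise under 20 points. The males of the 2 groups did not overlap, with G4* higher, in 95.2% of windows. The median difference was 25.2 points, and the central share of windows from the 5th to the 95th percentile ran from 7.54 to 43.8 points. Within a window the median SD was 1.25 points over the G4* males and 6.56 points over the mutant males.

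With wild type on the G2 side the count was very small. G4+ against G2 wild type had 258 windows called higher (0.0385%) and 368 called lower (0.0549%) of 669711, with a median difference of -0.32 points. The difference between the 2 comparisons, tested in 1 fit over the 12 sperm males, was called higher in 331506 of 488394 windows (67.9%) and lower in 118 (0.0242%), with a median of 24.9 points.

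Over all windows, the size of the regain in points went up and then down with the mutant level. Windows with a mutant mean of 40% to 50% regained most: 22998 windows averaged 89.9% ± 0.0833 in G4* and 46.1% ± 9.16 in mutant sperm (SD, n = 3 each), a regain of 43.8 points. On the low side, the regain was 30.1 points at a mutant level of 20% to 30% and 20.3 points at 10% to 20%. On the high side it was 30.5 points at 60% to 70%, 21.9 points at 70% to 80% and 13.5 points at 80% to 90%. From a mutant level of 50% upward, G4* means lay between 94.5% and 97.4% whatever the mutant level. Below that, G4* means were 75.7%, 55.3% and 35.1% in the bins from 30% to 40%, 20% to 30% and 10% to 20%. In the same bins of the 12-male windows, G4* means were 76.0%, 56.6% and 35.9% and G2 wild-type means were 77.5%, 56.3% and 33.9%. The bin means of G4* thus lay close to those of wild type, not at 1 fixed level. Among windows with G2 wild type at 80% or more, the regain had no rising side. It was 59.0 points at a mutant level of 10% to 20% and 54.5 points at 20% to 30%. It then fell to 46.8 points at 40% to 50% and 13.5 points at 80% to 90%.

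The mutant level that sorts the windows also enters the difference, so each mutant male was used in turn to sort while the other 2 were measured. The largest regain then stood in the 40% to 50% bin for males 2 and 3 (44.0 and 43.2 points) and in the 30% to 40% bin for male 1 (35.6 points). Sorted by whole-body mutant fish at 18 dpf, which share no male with the difference, the largest regain was 32.9 points, in the 30% to 40% bin. The rise and fall with the mutant level was present in each of these, and its height depended on the sorting.

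**Figure D2:**
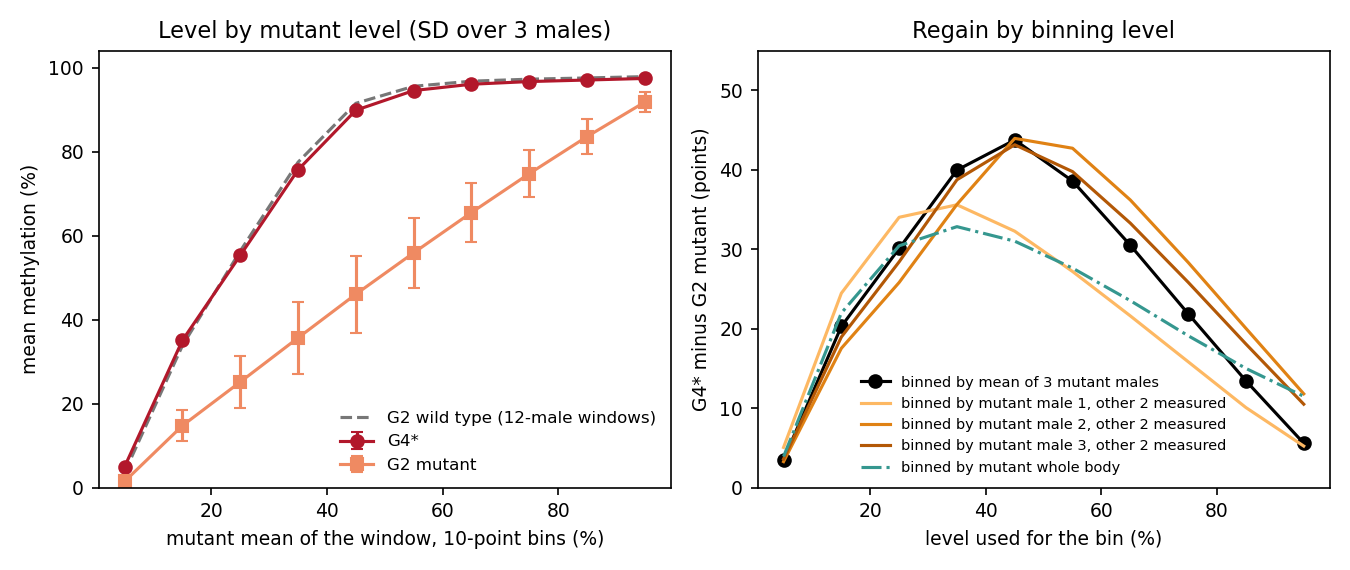
The left panel plots mean methylation (%) of G4* and G2 mutant sperm, with SD over 3 males, against the mutant level of the window in 10-point bins, and G2 wild-type sperm as a dashed line. The right panel plots G4* minus G2 mutant (points) against the level used for sorting; the curve peaks at 43.8 points when sorted by the mutant mean and at 32.9 points when sorted by mutant whole body.

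Most windows that were unmethylated in mutant sperm were low in G4* as well. In 23878 windows under 10% in the mutant, G4* averaged 5.07% ± 0.0769 and the mutant 1.54% ± 0.35 (SD, n = 3 each), with a median regain of 0.28 points, and 1067 of them (4.47%) were called higher. Of the 17916 such windows valued in all 12 males, 15559 (86.8%) were also under 10% in G2 wild type. These windows were rich in CpGs, with a median of 29 listed CpGs a kilobase against 18 over all windows and 12 in the 40% to 50% bin. That did not set them apart from windows at 90% to 100% in the mutant, which had a median of 27. Near complete loss was rare: 7 windows stood under 10% in the mutant and at 80% or more in G2 wild type. In these 7, the G4* males averaged 80.7%, 77.6% and 73.6%, against 4.98% ± 2.44 in mutant sperm (SD, n = 3). G4+ averaged 81.9% ± 4.51 and G2 wild type 91.0% ± 0.386 there (SD, n = 3 each), and 3 of the 7 windows had a G4* mean between 20% and 80%.

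CpG density moved with the regain. Windows with 5 to 9 listed CpGs averaged 93.9% ± 0.0277 in G4* and 60.1% ± 6.85 in mutant sperm (SD, n = 3 each), a regain of 33.8 points, and 90.02% of them were called higher. Windows with 60 or more listed CpGs averaged 80.9% ± 0.048 in G4* and 67.5% ± 4.05 in mutant sperm (SD, n = 3 each), a regain of 13.4 points, and 17.9% were called higher. The regain fell at every step of density in between. The loss was smaller in dense windows as well. Among windows with G2 wild type at 80% or more, it was 35.1 points at 5 to 9 listed CpGs and 16.1 points at 60 or more. As a share of that loss, G4* males had regained 97.5% ± 0.0836 and 96.5% ± 0.271 (SD, n = 3 each). Across chromosomes the mean regain varied little, between 23.8 points on chromosome 25 and 26.9 points on chromosome 7.

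As a share of what had been lost, the regain was nearly complete. In 458787 windows with G2 wild type at 80% or more, wild type averaged 97.0%, mutant 70.6% and G4* 96.4%, so that G4* males 1 to 3 had regained 97.5%, 97.7% and 97.8% of the loss (mean 97.7% ± 0.145 SD, n = 3). G4+ males had regained 97.9% ± 0.305 of it (SD, n = 3), and the males of the 2 groups overlapped. These windows were chosen for a high wild-type level, which can raise the full level. The share also counts DNA that G4 males received from the wild-type fish of the 2 crosses. It therefore does not measure how much methylation returned to DNA from the mutant forebear. In 96.6% of them G4* was no more than 5 points below wild type, and in 5786 (1.26%) it was over 10 points below, against 1.02% in G4+.

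The share was smaller at both ends of the mutant level. It was 98.2% ± 0.114 in windows at 60% to 70% in mutant sperm, 95.9% ± 0.167 at 40% to 50%, 91.4% ± 0.331 at 30% to 40% and 85.6% ± 1.39 at 20% to 30% (SD, n = 3 each). The 85 windows at 10% to 20% had regained 80.4% ± 6.39, with 74.4%, 87.1% and 79.8% in males 1 to 3. Where little had been lost it was 97.4% ± 0.308 at 80% to 90% and 94.1% ± 0.569 at 90% to 100% (SD, n = 3 each). G4+ gave 80.8% ± 8.64 in the same 85 windows (SD, n = 3), and the 2 groups overlapped. The mutant level enters both the sorting and the share, so these values are descriptions.

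**Figure D3:**
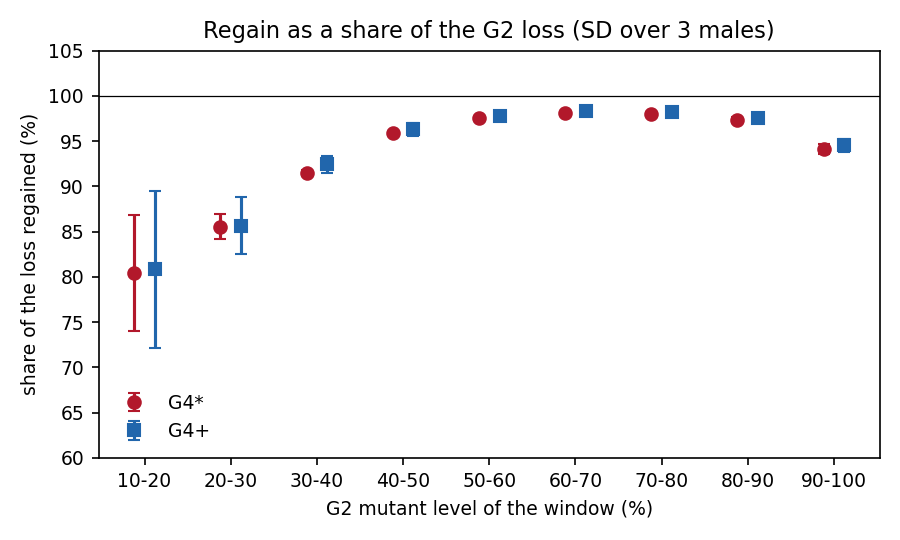
Share of the G2 loss regained (%) in G4* and G4+ sperm, with SD over 3 males, by the G2 mutant level of the window, for windows with G2 wild type at 80% or more. The shares stand between 80.4% and 98.2% in G4*, and the G4* and G4+ points lie close together at every level.

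Gene groups regained with the genome. Windows were given to a gene where they overlapped a deposited G2 interval that the authors placed within that gene. Those intervals came from the comparison of mutant with wild-type G2 males, so a low mutant level was part of their choice. Of 194282 such windows, 69.6% were called higher, beside 69.8% of all windows tested. Only 328 of the 194282 were at or below the mutant level, so a list with no such window is not set apart by that.

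Genes of DNA methylation itself were called higher in 103 of 162 windows (63.6%, beside 69.8% of all windows). Another 59 were not called, and no window was at or below the mutant level. The median difference was 22.7 points, beside 25.2 points over all windows. The median level was 97.4% in G4* and 74.0% in mutant sperm. Both windows of *dnmt1*, the mutated gene, were called higher. Its window with the largest rise, chr3:54347001-54348000, had 94.6%, 100.0% and 99.3% in G4*, against 37.9%, 41.4% and 41.7% in mutant sperm (limma adjusted p = 8.63e-06). G4+ averaged 98.9% and G2 wild type 98.5% there. G4 males without the mutant allele hold *dnmt1* from wild-type fish, barring recombination close to it. The rise in both windows can therefore not be read as methylation regained on DNA of the mutant forebear. Among the de novo methyltransferases, *dnmt3ab* was called higher in 26 of 34 windows, with gene means of 94.5% ± 0.398 in G4* and 69.2% ± 4.92 in mutant sperm, and *dnmt3bb.3* in 3 of 3 (97.3% ± 0.769 in G4* and 64.9% ± 5.2 in mutant sperm; SD, n = 3 each). *tet1*, which encodes a methylcytosine oxidase, was called higher in 23 of 34 windows. *uhrf1*, the DNMT1 recruiting factor, was called higher in 4 of 12 windows, and its gene mean was already 75.6% ± 3.99 in mutant sperm, against 94.2% ± 0.144 in G4* (SD, n = 3 each). None of the 4 windows of *mbd2*, a reader of methylated CpGs, was called, with means of 96.6% ± 0.936 in G4* and 85.1% ± 3.2 in mutant sperm (SD, n = 3 each). Such a mutant level left little or no room for a rise of 20 points, so the missing calls do not set *mbd2* apart.

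A window in *gadd45ab*, a member of a stress response family linked to DNA demethylation, was the exception in that list. At chr6:23833001-23834000 the G4* males had 56.4%, 59.3% and 52.5%, against 48.4%, 58.4% and 56.7% in G2 mutant males. The 2 groups overlapped, and the difference of 1.53 points was not called (limma adjusted p = 0.829). In the same window the G4+ males had 96.0%, 98.96% and 98.9%, and the G2 wild-type males 100.0%, 98.2% and 99.1%. The window was picked for the smallest difference of the list, which favours a low G4* level, and G4+ played no part. A G4* level below that of G4+ therefore follows in part from the choice and does not set G4* apart. The other 3 windows of the gene were called higher, the largest by 43.4 points.

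Germline and piRNA pathway genes had the highest share of the lists, with 91 of 110 windows called higher (82.7%, beside 69.8% of all windows). Another 19 were not called, and no window was at or below the mutant level. Their median difference was 26.1 points, beside 25.2 over all windows, with a median of 97.5% in G4* and 70.8% in mutant sperm. All 7 windows of *tdrd9*, a piRNA pathway helicase, were called higher, with gene means of 97.8% ± 0.04 in G4* and 68.1% ± 4.07 in mutant sperm (SD, n = 3 each). *dazl*, an RNA-binding germ cell factor, rose in 2 of 2 windows, with 96.8% ± 0.799 in G4* and 62.9% ± 10.03 in mutant sperm (SD, n = 3 each). *ddx4*, the vasa helicase gene, rose in 6 of 7 windows. *piwil1*, a piRNA-binding Argonaute gene, held the ends of the list. Its window chr8:44237001-44238000 had 98.4%, 98.9% and 98.4% in G4*, against 47.1%, 45.9% and 52.1% in mutant sperm (limma adjusted p = 8.34e-06). Its window chr8:44305001-44306000 had 14.3%, 14.7% and 18.0% in G4*, against 7.42%, 9.4% and 8.02% in mutant sperm, and stood at 17.1% in G4+ and 16.2% in G2 wild type. That low window passed the FDR (limma adjusted p = 0.0263) with a difference of 7.39 points and so was not called.

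Genes of T cell development were called higher in 208 of 292 windows (71.2%, beside 69.8% of all windows). In this list 1 window was called lower (0.0319% of all windows were) and 83 were not called. The median difference was 24.7 points. The median level was 97.3% in G4* and 72.2% in mutant sperm. *cbfb*, the common partner of the Runx factors, rose in 19 of 20 windows and had the largest difference. At chr18:23061001-23062000 it had 97.3%, 98.7% and 98.6% in G4*, against 37.4%, 45.1% and 33.6% in mutant sperm (limma adjusted p = 8.34e-06). *cd8a*, a co-receptor gene of cytotoxic T cells, was low in mutant sperm, with 88.0% ± 1.8 in G4* and 48.3% ± 8.05 in mutant sperm over its 2 windows, both called higher (SD, n = 3 each). *lck* and *zap70*, kinases of T cell receptor signalling, rose in 7 of 8 and 5 of 5 windows. Neither window of *rag2*, a subunit of the antigen receptor recombinase, was called, with 97.5% ± 1.31 in G4* and 80.3% ± 2.33 in mutant sperm (SD, n = 3 each). *runx1* had 3 windows and none was called, with 98.3% ± 0.584 in G4* and 84.5% ± 4.91 in mutant sperm (SD, n = 3 each). At such mutant levels there was little or no room for a rise of 20 points, so the missing calls of *rag2* and *runx1* do not set them apart.

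The window called lower in that list lies in *lef1*, which encodes an HMG-box factor of Wnt signalling used by early lymphocytes. At chr1:49207001-49208000 the G4* males had 54.8%, 50.2% and 64.2%, against 74.4%, 83.4% and 77.8% in G2 mutant males, a fall of 22.1 points without overlap (limma adjusted p = 0.00463). The G4+ males were split, at 39.9%, 48.9% and 98.7%, and the G2 wild-type males stood at 98.1%, 99.2% and 98.9%. The G4* change did not pass the test against the change from G2 wild type to G4+ (limma adjusted p = 0.129). Of the 43 windows of *lef1*, 32 were called higher.

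mTOR complex genes were called higher in 162 of 250 windows (64.8%, beside 69.8% of all windows). Another 88 were not called, and no window was at or below the mutant level. The median difference was 23.4 points. The kinase gene *mtor* was called higher in 56 of 85 windows. Its window chr8:46201001-46202000 had the largest difference of the list, with 99.3%, 98.3% and 96.0% in G4*, against 46.3%, 56.0% and 51.9% in mutant sperm (limma adjusted p = 8.34e-06). The smallest was in *tsc1b*, an inhibitor of the pathway, at chr21:17280001-17281000, with 88.6%, 92.5% and 91.4% in G4*, against 79.8%, 91.8% and 80.2% in mutant sperm, where the groups overlapped (limma adjusted p = 0.125). The Hox list held *hoxb3a* alone, the single Hox symbol among the deposited intervals, and no other Hox gene was examined. At chr3:23617001-23618000 it had 96.9%, 97.8% and 98.98% in G4*, against 71.8%, 83.5% and 76.0% in mutant sperm, and was called higher. Its neighbour at chr3:23616001-23617000 stood 18.7 points higher in G4*. Its mutant mean of 80.2% left no room for a rise of 20 points, so it could not be called.

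At *runx3* and *rptor*, 4 windows overlapped intervals that the authors had deposited for G4* against G4+, a comparison that shares the G4* males. It also holds the same G4+ males, and the study reports these intervals as hypermethylated in G4*. G4+ lying below G4* in them was therefore part of the choice. Near *runx3*, a Runx factor of T lymphocytes, the interval lies 2.3 kb from the gene, at chr13:44953001-44954000. The G4* males had 95.9%, 96.1% and 97.6% there, against 9.28%, 58.2% and 21.3% in mutant sperm, a regain of 67.0 points (limma adjusted p = 1.75e-05). The G4+ males were intermediate, at 52.0%, 61.2% and 63.9%, and the G2 wild-type males had 96.4%, 96.8% and 97.0%. In *rptor*, which encodes the Raptor subunit of mTOR complex 1, chr6:17437001-17438000 had 97.6%, 97.8% and 97.4% in G4*, against 40.4%, 75.1% and 47.7% in mutant sperm (limma adjusted p = 1.24e-05). The G4+ males had 56.1%, 55.2% and 63.6% in it, and the G2 wild-type males 99.4%, 99.2% and 97.3%. The next windows of the interval rose by 34.7 and 45.3 points. In these 4 windows G4* stood close to the G2 wild-type level.

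**Figure D4:**
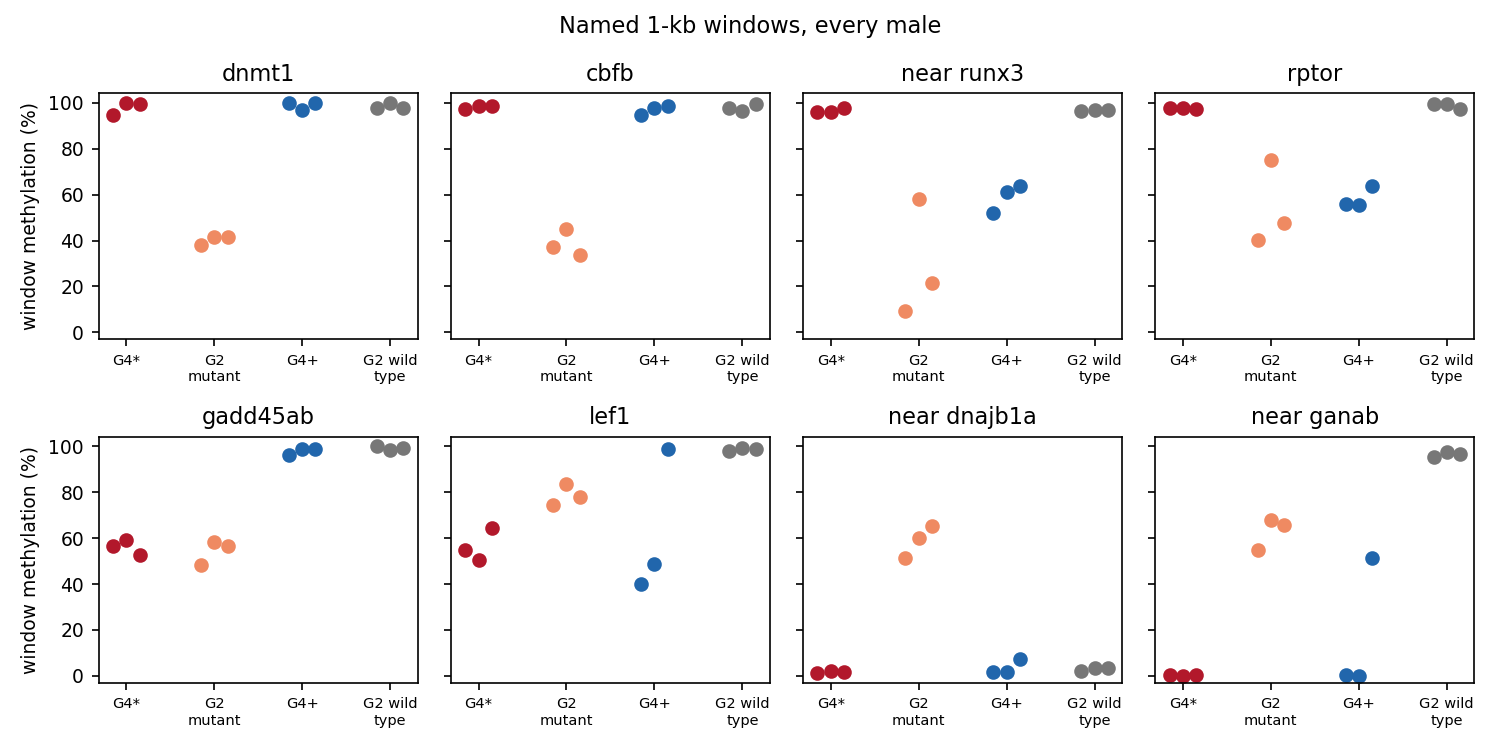
Methylation (%) of 8 named 1-kb windows in every G4*, G2 mutant, G4+ and G2 wild-type male, each point 1 male. The windows of *dnmt1* and *cbfb* are high in all but the mutant males, those of *gadd45ab* and *lef1* are intermediate in all 3 G4* males, and those near *dnajb1a* and *ganab* are near 0% in G4* and between 51.3% and 68.1% in mutant sperm.

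The largest rises outside the lists were nearly complete switches. A window with no deposited interval, chr3:44150001-44151000, had 98.5%, 96.7% and 97.5% in G4*, against 4.62%, 1.65% and 3.72% in mutant sperm (limma adjusted p = 8.34e-06), with G4+ at 98.1% and G2 wild type at 98.7%. At chr7:33994001-33995000 the G4* males had 94.4%, 97.2% and 98.4%, against 0.0% in all 3 mutant males. G2 wild type was unmethylated there too, at 0.53%, 1.3% and 1.71%, and the G4+ males had 61.7%, 47.5% and 96.9%. The window chr7:65070001-65071000 was alike, with 96.8%, 94.1% and 95.9% in G4*, against 1.26%, 4.08% and 4.63% in mutant sperm. The G4+ males had 51.4%, 54.6% and 96.5% in it, and the G2 wild-type males 11.7%, 7.59% and 6.54%. G4* was high in these last 2 windows where both G2 groups were low, and every G4+ male stood above both G2 groups as well. The other 2 of the 5 largest rises, chr3:45039001-45040000 and chr3:4185001-4186000, were not valued in all 12 males, and the second lies 2.38 kb from *si:dkey-36h5.1*. They rose by 94.8 and 94.0 points.

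Windows without any regain were few. G4* was at or below the mutant mean in 10276 windows (1.58%), and 8427 of those were under 10% in the mutant. Among windows with something to regain, defined as G2 wild type at 80% or more and mutant at 60% or less, 182 of 69277 (0.263%) stood no more than 5 points above the mutant in G4*. Of these, 119 were at or below the mutant. The nearest windows inside the limit differed by 4.8 to 4.85 points and the nearest outside by 5.03 to 5.08 points, and another 108 lay between 5 and 10 points.

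In the 182 windows the G4* males averaged 39.95%, 43.4% and 48.6%, against 37.5%, 59.8% and 52.5% in mutant sperm and 93.2%, 93.5% and 91.5% in G2 wild type. In 158 of them all 3 G4* males were under 75%. In 63 all 3 G4* males lay between 40% and 75%, and in 8 all 3 were under 20%. G4+ averaged 61.9% ± 2.42 over the 182 windows (SD, n = 3). By the same limit 130 windows were not regained in G4+, and 65 windows were on both lists, which is 35.7% of the G4* list and 50% of the G4+ list. In 25 of the 182, all 3 G4* males were under 75% and no G4+ male was. The 182 windows were chosen for a low G4* level, and G4+ played no part in the choice. A G4* level below that of G4+ therefore follows in part from the choice and does not set G4* apart. In whole body at 18 dpf, 139 of the windows had values, with 44.6% ± 0.632 in mutant and 73.4% ± 1.92 in wild-type fish, and all eligible windows had 46.3% ± 0.115 in mutant and 83.1% ± 0.22 in wild-type fish (SD, n = 3 each). Wild-type males were uneven at some of them: in 37 windows at least 1 G2 wild-type male was under 80%. In the 108 windows with every wild-type male at 90% or more, G4* averaged 45.9% ± 5.82 and G2 wild type 97.2% ± 0.0644 (SD, n = 3 each).

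The windows formed 174 loci when those within 10 kb were joined. They lay on 22 chromosomes, and chromosome 1 held the largest count. Per eligible window the share was highest on chromosome 22, with 11 of 1720 (0.64%), then on chromosome 1, with 21 of 3474 (0.604%), and on chromosome 8, with 16 of 2833 (0.565%). Chromosomes 4, 19 and 23 held 0. Of the 182, 53 overlapped a deposited interval within a gene.

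Among the 10 with the lowest G4* level, the window chr7:22518001-22519000 had 1.19%, 1.04% and 0.0% in G4*, against 39.2%, 35.3% and 40.5% in mutant sperm. G4+ males had 56.1%, 61.6% and 0.0% there, and the G2 wild-type males 98.9%, 97.1% and 99.02%. The window chr7:46820001-46821000 had 7.36%, 7.16% and 6.57% in G4*, against 62.4%, 73.8% and 29.0% in mutant sperm, with G4+ at 65.3%, 53.5% and 11.9% and G2 wild type between 96.3% and 99.3%. At chr22:3563001-3564000 the G4* males had 9.55%, 8.86% and 11.1%, against 55.7%, 41.6% and 32.7% in mutant sperm, with G4+ at 50.5%, 61.9% and 13.2% and G2 wild type at 63.5%, 98.03% and 98.0%. In each of these 3 windows the G4* males were alike and the G4+ males were split. The windows were chosen for a low G4* mean, which limits how far apart the G4* males can lie. G4+ played no part in the choice, so the 2 spreads cannot be compared. Near *ablim1a*, an actin-binding protein gene 2.92 kb away, chr13:43369001-43370000 was split within G4*, at 0.75%, 3.43% and 54.7%, against 25.02%, 68.7% and 70.01% in mutant sperm. The window chr2:53726001-53727000 had 0.0%, 26.7% and 14.8% in G4*, against 0.0%, 52.5% and 22.0% in mutant sperm, and the groups overlapped. The other 5 held G4* means between 4.4% and 16.1%. In each of those 5, as in the chromosome 22 window, at least 1 G2 wild-type male was under 70%. Among them were 2 windows on chromosome 8 whose nearest annotated gene, *lhx2b*, lies 24.1 and 59.2 kb away, and 1 window 14.5 kb from *cdh15*.

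A further fall was called in 208 windows (0.0319%), of which 149 had no overlap between the groups. Over all windows, G4* lay wholly below the mutant in 0.142%. Nearly all windows rose, so the FDR of 5% reached up to an unadjusted p of 0.0477 and did little to limit calls in the other direction. Under a Bonferroni limit over all windows, an alternative added after seeing the data, 7 windows remained lower by at least 20 points and 3369 higher.

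In the 147 of the 208 windows valued in all 12 males, the males averaged 21.9%, 24.6% and 26.7% in G4*, against 52.0%, 56.6% and 60.3% in mutant sperm. G4+ averaged 39.1% ± 4.15 and G2 wild type 65.6% ± 2.56 there (SD, n = 3 each). These windows were chosen for a G4* level below the mutant, so G4* lying below G4+ follows in part from the choice. In all, 3 kinds could be told apart by the G2 wild-type level. In 89 windows the mutant was over 10 points below wild type, with 26.3% ± 3.19 in G4*, 57.3% ± 5.28 in mutant and 82.3% ± 0.134 in wild type, so G4* had gone further down. In 30 windows the mutant was over 10 points above wild type, with 16.9% ± 3.0 in G4*, 53.5% ± 9.59 in mutant and 25.7% ± 7.44 in wild type. In the remaining 28 the G2 groups lay within 10 points of each other, with 26.3% ± 5.7 in G4* (SD, n = 3 throughout). The 30 windows do not stand for all windows with a raised mutant level, since a fall in G4* was part of their choice. In 112 windows, called or not, the mutant was 20 points or more above wild type. These averaged 58.0% ± 5.68 in G4*, 49.8% ± 4.37 in mutant and 16.5% ± 0.211 in wild type (SD, n = 3 each). Of the 112, G4* was nearer to wild type in 23, and 16 were called lower.

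Named examples came from the first 2 kinds. The window chr14:46525001-46526000 lies 1.28 kb from *ganab*, a glucosidase gene of glycoprotein folding, and had 0.55%, 0.0% and 0.36% in G4*, against 54.8%, 68.1% and 65.6% in mutant sperm (limma adjusted p = 8.34e-06). The G4+ males had 0.6%, 0.0% and 51.4% in it, and the G2 wild-type males 95.1%, 97.6% and 96.4%. Set against the change from G2 wild type to G4+, the G4* change differed by 12.6 points over the CpGs valued in all 12 males, which did not pass the test (limma adjusted p = 0.439). In *CT573476.1*, chr3:52703001-52704000 had 2.24%, 3.68% and 0.0% in G4*, against 75.8%, 85.5% and 83.3% in mutant sperm, while G4+ averaged 0.5% and G2 wild type 1.9%. Near *dnajb1a*, an Hsp40 co-chaperone gene 0.89 kb away, chr3:45019001-45020000 had 1.05%, 2.11% and 1.58% in G4*, against 51.3%, 60.02% and 65.3% in mutant sperm, with G4+ at 3.62% and G2 wild type at 3.1%. Among the sperm males, only the mutant males were over 10% in both chromosome 3 windows. The change differed from that of G4+ in both (-84.5 and -57.8 points, limma adjusted p = 1.9e-05 and 1.94e-05). In whole body the 2 windows were not alike. The window in *CT573476.1* averaged 83.2% in mutant and 84.1% in wild-type whole body, so wild-type fish were not low there. The window near *dnajb1a* averaged 59.4% in mutant and 3.39% in wild-type whole body. Both windows lie within 10 Mb of *dnmt1*, and whether G4* males held DNA of the mutant forebear there was not tested.

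The other 7 of the 10 largest falls included chr7:68811001-68812000, with 0.0% in all 3 G4* males, against 75.7%, 86.9% and 81.2% in mutant sperm. At chr5:995001-996000 the G4* males had 0.79%, 0.0% and 2.63%, against 69.7%, 56.8% and 81.7% in mutant sperm. At chr3:5321001-5322000 male 1 stood apart in G4*, at 51.8%, 1.18% and 0.0%, against 83.5%, 88.1% and 87.4% in mutant sperm. At chr7:69952001-69953000 the G4* males had 9.77%, 66.5% and 11.1%, against 85.3%, 86.2% and 82.3%, and male 2 stood apart. The windows named so far in this paragraph were not valued in all 12 males, so their wild-type level is not given. The remaining 3, at chr16:1030001-1031000, chr15:41146001-41147000 and chr3:54829001-54830000, had G4* means of 0.67%, 23.2% and 14.3% and mutant means of 57.6%, 79.9% and 70.8%. G2 wild type averaged 68.5%, 90.8% and 0.0% in these 3, and G4+ 1.29%, 26.6% and 31.2%. At chr3:54829001-54830000 the G4* males had 42.0%, 0.95% and 0.0%, so that fall did not go below wild type.

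Chromosome 3, which carries *dnmt1*, held more of these falls than any other chromosome: 35 of the 208, or 0.128% of its 27289 windows. Within 10 Mb of *dnmt1*, 8 of 8445 windows (0.0947%) were called lower, against 27 of the 18844 other windows of chromosome 3 (0.143%) and 0.0311% of all windows outside that stretch. Over all kinds of fall, the rate near *dnmt1* was below that of the rest of chromosome 3 and above that of all windows outside the stretch. Of the 30 falls with a mutant level above wild type, 11 lay on chromosome 3 and 5 of these near *dnmt1*. For scale, the stretch near *dnmt1* held 6256 of the 488394 windows valued in all 12 males, from which the 30 came. Chromosome 3 held 27289 of the 651158 windows tested. The pooled rates do not describe this kind alone, and a link of the falls to the position of *dnmt1* was not tested. The named falls in *CT573476.1*, near *dnajb1a* and at chr3:54829001-54830000 lie in the stretch near *dnmt1*. Whether G4* males held DNA of the mutant forebear in that stretch was not tested either.

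Single G4* males were below the wild-type level in a small share of windows. Taking 349964 windows with all 3 G2 wild-type males at 90% or more and mutant at 80% or less, a measure chosen after seeing the data, 0.427%, 0.399% and 0.373% were under 75% in G4* males 1 to 3, against 0.413%, 0.325% and 0.29% in G4+ males 1 to 3. The means of 0.4% ± 0.027 in G4* and 0.343% ± 0.0635 in G4+ overlapped (two-sided exact permutation test, n = 3 each, p = 0.3). Of the low values, 93.0% to 95.6% lay between 40% and 75% in each G4* male. The share followed the mutant level: it averaged 3.56% ± 0.0991 in G4* for windows under 50% in mutant sperm, 0.823% ± 0.0521 at 50% to 60%, 0.138% ± 0.0181 at 70% to 80% and 0.0674% ± 0.0162 at 80% to 90% (SD, n = 3 each). G4+ had 2.95% ± 0.572 for windows under 50% in mutant sperm, which overlapped with G4* (exact permutation test, n = 3 each, p = 0.3).

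The low windows were shared unevenly. Any of the G4* males was low in 2625 windows: 1475 in a single male, 730 in 2 males and 420 in all 3. Of the 420, 72.6% were also low in at least 1 G4+ male, against 43.1% of those low in a single G4* male and 0.307% of windows low in no G4* male.

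They were also gathered on particular chromosomes. G4* males were wholly above G4+ males on 3 of 25 chromosomes (12%) and wholly below them on 3 (12%). In G4* male 1, chromosomes 1, 6 and 17 held 38.5% of its low windows and 12.9% of all windows examined. On chromosome 6 there were 190, 203 and 121 low windows in G4* males 1 to 3, against 39, 11 and 43 in G4+ males 1 to 3, without overlap. On chromosome 7 there were 28, 32 and 38 in G4*, against 222, 153 and 40 in G4+, again without overlap. On chromosome 17, G4* males had 143, 25 and 98 and G4+ males 131, 24 and 25, so males differed within both groups. On chromosome 9 each G4* male had 10. Neighbouring windows of a chromosome are not independent, and whether the low windows lay on chromosomes from the mutant forebear was not tested.

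**Figure D5:**
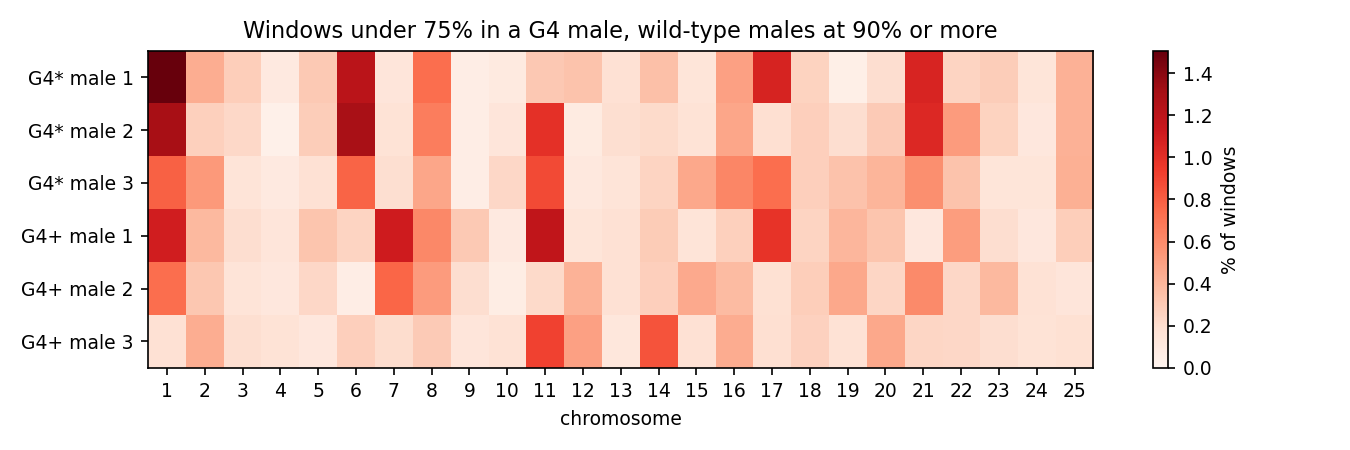
Share of windows (%) under 75% in each G4* and G4+ male by chromosome, among windows with all G2 wild-type males at 90% or more and G2 mutant at 80% or less; darker red is a larger share. G4* males 1 and 2 are darkest on chromosomes 1 and 6, and G4+ male 1 on chromosomes 7, 11 and 1.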

How the data were processed

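Whole genome bisulfite sequencing covered 18 zebrafish, 12 of them sperm donors. Per the labels and the study's methods, the authors trimmed reads (cutadapt 1.9.1), mapped them with BWA 0.7.12 to GRCz10 (danRer10), removed duplicates (Picard 1.136), merged both libraries of a fish, profiled methylation bias with MethylDackel 0.1.7, counted reads per CpG with methylCtools, and deposited the fraction of methylated reads per CpG, set to missing at low coverage or at polymorphic sites. Read depth per CpG is not in these values and is unknown, so no coverage minimum could be varied. The authors' interval tables were used for interval position, gene and the deposited distance to the gene (in bp). Their fold changes, p-values and group means were not used, and 3 tables of such means or comparisons were left out. Of 21602 gene IDs, 19740 matched the gene name table.

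Fractions were turned into percent, averaged per 1-kb window, and tested with limma 3.58.1 (R 4.3.3) on logit means with an offset of 0.01, Benjamini-Hochberg over all windows. Python 3 scripts with exact permutation tests did the rest, and the window test was tried on simulated data. CpGs with a value ranged from 12444816 to 15608933 over the 6 males. The labels tie no male to a male of another group. Named windows were the 10 largest falls and 5 largest rises among called windows without overlap, the 10 windows not regained with the lowest G4* level, the windows of the *runx3* and *rptor* G4 intervals, and the largest and smallest difference of each gene list, leaving out any within 2 kb of one taken. The windows, lists and tests were chosen with earlier results of these data known. Alternatives varied the offset, scale, window size, CpG minimum, thresholds, fit and males.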

Additional observations from a re-analysis of the deposited data

Results flagged for a closer look

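The regain was larger than the G4+ minus G2 wild-type change in 331506 of 488394 windows and smaller in 118, by the test of the difference of differences over 12 males (limma, FDR under 5% and at least 20 points). Both G4 groups descend from G2 mutant males, so this difference holds G2 wild type against G2 mutant as well as G4* against G4+. Groups held 3 males each, too few for an outlier test.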

How the results depend on the processing

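Limits. Groups held 3 males, depth per CpG is unknown, and generation and sequencing table cannot be told apart. The calls of falls carry little multiple-testing control. The cause of the differences below was not tested, except that stricter CpG minimums and larger windows test fewer or other windows.

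The 454357 windows called higher became 158077 with at least 10 CpGs, where fewer windows were tested, and 3369 under Bonferroni (added after seeing the data), and ranged from 369419 to 489945 as each male was left out. The 208 windows called lower became 123 with at least 10 CpGs, 111 in 2-kb windows, 600 with no minimum difference, 115 in 1 fit over 12 males and 7 under Bonferroni, and ranged from 173 to 281 as each male was left out. The difference of differences became 95313 higher and 46 lower with at least 10 CpGs. The 182 windows not regained became 401 with mutant at 70% or less, 290 at up to 10 points above the mutant and 45 with at least 10 CpGs, and 151 to 238 as each male was left out.

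The regain at a mutant level of 0% to 10% was 3.93 points sorted by whole body, 2.32 with at least 10 CpGs, and 3.3 to 5.09 as a male was left out or used for sorting. At 40% to 50% it was 31.0 sorted by whole body and 32.3 to 44 as a male was left out or used for sorting; at 60% to 70% it was 23.6 and 21.6 to 36.2 as a male was left out or used for sorting; at 80% to 90% it was 18.1 sorted by mutant male 3 and 10.1 to 20.1 as a male was left out or used for sorting. The share regained was 98.6% as a median of single-window ratios, 99.8% against G4+, and 97.3% to 97.9% as each male was left out. The share of low windows in G4* males, 0.4%, was 0.273% under a limit of 70%, 0.636% under 80% and 0.322% with at least 10 CpGs, all chosen after seeing the data. Replicate numbers did not pair the males: deviations of same-numbered males correlated at 0.0085, -0.0015 and -0.027. With the replicate block, 454486 windows were called higher and 229 lower, the difference of differences gave 331715 and 124, and the mean difference was 24.8 points. Of the named windows, 19 were followed through the alternatives: the 10 largest falls, the 5 largest rises and those at *runx3* and *rptor*. They kept their direction and call under each fit over 1-kb windows that held them. The windows named from the gene lists and those not regained were not followed in this way. Among them, the fall at *lef1* was 22.1 points, close to the limit of 20 points.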
